A study of Homo sapiens with 6 samples.

Results

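The genes described here are 38 members of glycolysis and of the cellular response to low oxygen, out of 26334 gene symbols with counts. They were picked by symbol and comprise 16 enzymes of the glycolytic pathway, 4 enzymes that regulate it (PDK1, PDK3, PFKFB3 and PFKFB4) and 18 hypoxia genes. RNA came from 6 clones of MiaPaCa2, an established cell line from a human pancreatic ductal adenocarcinoma. In 3 ZEB1-KO clones, ZEB1, a repressor that drives the epithelial-mesenchymal transition, had been deleted after electroporation of a plasmid carrying Cas9, GFP and a ZEB1 guide RNA. The 3 WT clones had received the Cas9-GFP plasmid without that guide and kept the gene. Every clone was isolated as GFP-positive cells and grown in DMEM with 10% serum, and each library is 1 clone. The sources used here do not give the oxygen level, cell density or glucose supply at harvest.

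Glycolysis splits glucose into pyruvate through a fixed series of cytosolic enzymes, and lactate dehydrogenase then turns pyruvate into lactate. When oxygen is plentiful, prolyl hydroxylases of the EGLN family mark the HIF alpha proteins HIF1A and EPAS1 for destruction. When oxygen is short, the stable alpha protein pairs with ARNT and switches on genes that carry a hypoxia response element, among them most glycolytic enzymes, VEGFA and CA9. HIF activity is thus set largely at the protein level, which RNA counts do not show. Pancreatic ductal tumours are known for poor oxygen supply and high glycolytic flux.

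Among 35 members with enough counts for a test, none passed an adjusted p of 0.05 in edgeR's quasi-likelihood test of ZEB1-KO over WT clones, against 0.176% of all 13659 genes tested. At an unadjusted p below 0.05 there were 9 members, 7 with higher and 2 with lower values in ZEB1-KO clones, or 25.7% of those tested against 17.7% of all genes. Other tests called P4HA2, a collagen prolyl hydroxylase, and GPI, the enzyme of the second glycolytic step. P4HA2 was called higher by edgeR's likelihood ratio test and by DESeq2, and GPI by DESeq2 alone. The likelihood ratio test called 4.52% of all genes and DESeq2 7.12%. LDHB, BNIP3 and CA9 were too low to be tested.

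Of 19 tested enzymes 17 had a positive log2 fold change (ZEB1-KO over WT), with a median of 0.28, against 49.4% of all genes and a median of -0.01. Of 16 tested hypoxia genes 8 were positive and 8 negative, and the median log2 fold change was 0.02. The enzyme values ran from -0.33 for TPI1 to 0.97 for GPI. Those of the hypoxia genes ran wider, from -1.30 for NDRG1 to 1.83 for P4HA2. With 1 library left out, 12 to 18 enzymes and 7 to 9 hypoxia genes were positive, and the lowest enzyme counts of 12 and 13 came without WT replicate 2 and WT replicate 3. Members were chosen with earlier results of these data known, so these counts are a description.

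**Figure D1:**
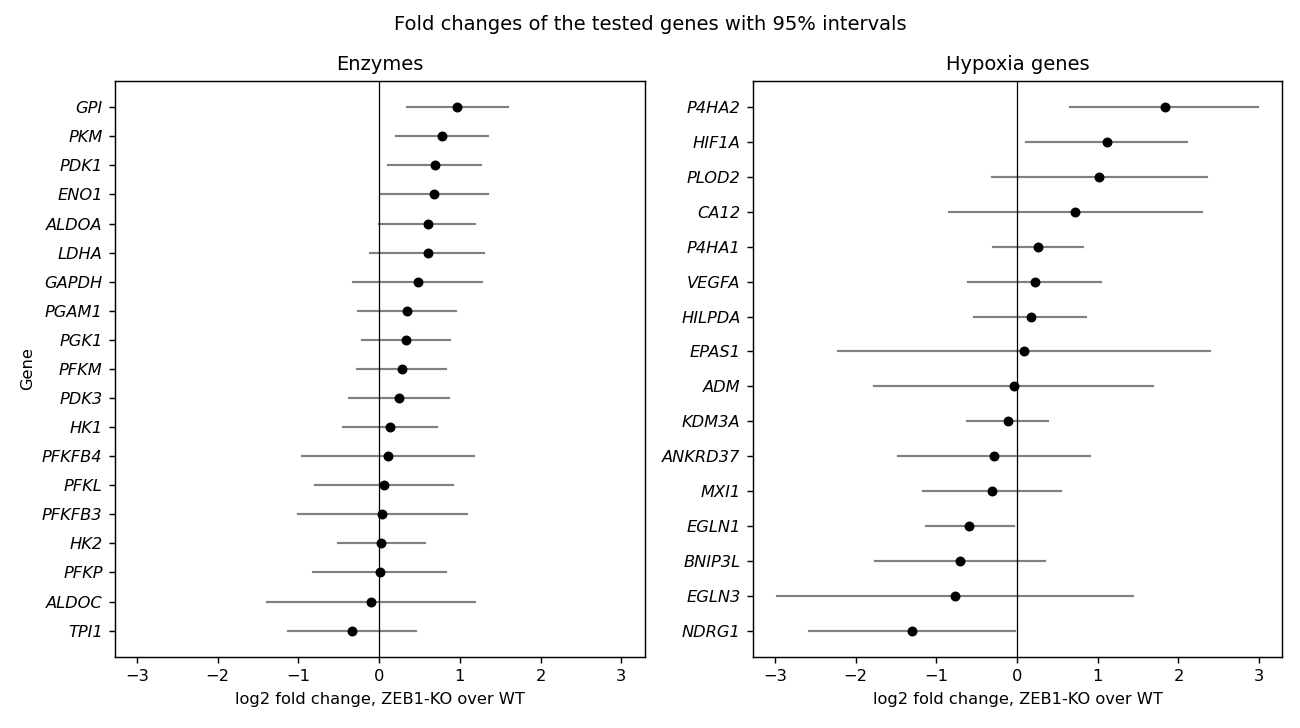
Log2 fold changes (ZEB1-KO over WT, all 6 libraries) of the 19 tested enzymes (left) and the 16 tested hypoxia genes (right), as points with 95% intervals from edgeR's quasi-likelihood test. Most enzymes lie right of 0, from -0.33 to 0.97, while the hypoxia genes lie on both sides, from -1.30 to 1.83.

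Total counts per library ranged from 18909305 to 36798770 in ZEB1-KO clones and from 26242238 to 42876693 in WT clones. A floor of 3 counts stood at 0.0741 to 0.150 CPM (counts scaled to library size after TMM adjustment) in ZEB1-KO libraries and 0.0687 to 0.122 CPM in WT libraries, for counting error only. ZEB1 had 67, 140 and 369 counts in ZEB1-KO replicates 1, 2 and 3, against 1486, 1011 and 830 counts in WT replicates 1, 2 and 3. The groups did not overlap, although its adjusted p of 0.0930 (edgeR's quasi-likelihood test) missed 0.05. Counts over the whole gene do not show the edit itself, whose position the sources used here do not give. Keratin genes KRT8 and KRT18, of epithelial cells, had at least 21602 counts in every library, while the epithelial markers EPCAM and CDH1 had at most 4. Groups were apart for KRT8 and KRT18, higher in ZEB1-KO clones, with log2 fold changes of 1.25 and 0.52 (adjusted p = 0.0635 and 0.297 in edgeR's quasi-likelihood test). KRT19 overlapped between groups, at 0.87 (adjusted p = 0.377 in the same test). KRT7 had 0, 4 and 17 counts in ZEB1-KO replicates 1, 2 and 3, against 25, 4 and 0 in WT replicates 1, 2 and 3. Of the mesenchymal markers, VIM and FN1 were lower without overlap, at -1.11 and -0.88 (adjusted p = 0.105 and 0.336), while CDH2 had 3, 11 and 69 counts in ZEB1-KO replicates 1, 2 and 3, against 1, 0 and 0 in WT replicates 1, 2 and 3. CDH2 was too low for that test and had an adjusted p of 0.00405 in DESeq2. The part of these markers in the member values was not tested. All markers of fibroblasts, islet cells and acinar cells had at most 3 counts, as had PTPRC, CD3E and HBB of blood and KDR of endothelium. CD68 had 43 to 217 counts, CDH5 1 to 59 and PECAM1 4 to 23. In bulk RNA of a clone, fewer expressing cells and less RNA per cell cannot be told apart.

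The stretches of promoter below show 4 members, picked as examples, that carry or lack the core of the hypoxia response element. LDHA and ENO1 were among the most abundant members, P4HA2 had the largest fold change, and CA9, the textbook HIF target, was below the floor of 3 counts. Each gives the 150 bases before the gene's start, 5′ to 3′ on the gene's strand, from RefSeq (GRCh38.p14). Capitals mark ACGTG or GCGTG on either strand, where the 6 letters CACGTG hold a match on both. They lie at chr11:18394413-18394562 (+ strand) for LDHA, chr1:8878687-8878836 (- strand) for ENO1, chr5:132227092-132227241 (- strand) for P4HA2 and chr9:35673778-35673927 (+ strand) for CA9.
LDHA: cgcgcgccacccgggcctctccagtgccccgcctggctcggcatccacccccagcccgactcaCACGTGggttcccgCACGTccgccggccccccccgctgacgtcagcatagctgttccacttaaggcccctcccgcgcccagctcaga
ENO1: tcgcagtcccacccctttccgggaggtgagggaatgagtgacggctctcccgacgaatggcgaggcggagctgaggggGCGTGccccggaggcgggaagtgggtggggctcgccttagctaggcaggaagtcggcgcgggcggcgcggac
P4HA2: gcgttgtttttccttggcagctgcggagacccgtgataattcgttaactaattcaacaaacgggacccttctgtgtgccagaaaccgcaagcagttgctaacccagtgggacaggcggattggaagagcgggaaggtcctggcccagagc
CA9: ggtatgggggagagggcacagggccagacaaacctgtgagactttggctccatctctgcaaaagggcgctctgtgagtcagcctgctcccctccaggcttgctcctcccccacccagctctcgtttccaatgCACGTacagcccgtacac

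The stretch of LDHA held 3 matches, those of ENO1 and CA9 1 each, and that of P4HA2 held 0. RefSeq windows of 300 bases (250 before and 50 after the start) were matched for 34 of the 38 members. ACGTG or GCGTG was found in 14 of 20 enzyme windows (70.0%) and 11 of 14 hypoxia gene windows (78.6%), beside 63.0% of 9847 windows of tested genes and 48.4% of all 27303 windows. Of the abundant enzymes, GAPDH, LDHA, ENO1, PGK1, ALDOA and PKM had a match in their windows, while TPI1 and PGAM1 had 0. Whether the core goes with the level of a gene was not tested. The E-box CACCTG, the kind of site ZEB1 is known to bind, was searched on both strands, and neither motif contains the other. It was found in 2 of 20 enzyme windows (10.0%) and 3 of 14 hypoxia gene windows (21.4%), beside 18.2% of windows of tested genes. GPI and ALDOA were the 2 enzymes, and HIF1A, CA9 and MXI1 the 3 hypoxia genes. These matches describe letters in a window.

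The level of the pathway was set by 8 abundant enzymes. On the TPM scale, which corrects for transcript length and was deposited for 11013 genes, GAPDH, which oxidizes glyceraldehyde 3-phosphate, stood first at 7769 ± 3624 TPM in ZEB1-KO clones and 4575 ± 573.7 TPM in WT clones (SD, n = 3 each). In WT clones TPI1, LDHA, ENO1, PGK1, ALDOA, PGAM1 and PKM followed, from 3517 TPM for TPI1 to 192.8 TPM for PKM. Neighbours in that order from ENO1 to PGAM1 differed by less than the larger SD of each pair. In ZEB1-KO clones the same 8 led, with LDHA (4137 ± 868.3 TPM) ahead of TPI1 (3410 ± 1607 TPM) and ALDOA ahead of PGK1 (SD, n = 3). The entry and commitment steps were far lower. The hexokinases HK1 and HK2, which trap glucose as its phosphate, had 11.3 and 7.44 TPM in ZEB1-KO clones and 8.69 and 6.05 TPM in WT clones. No phosphofructokinase averaged over 27.6 TPM in either group.

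**Figure D2:**
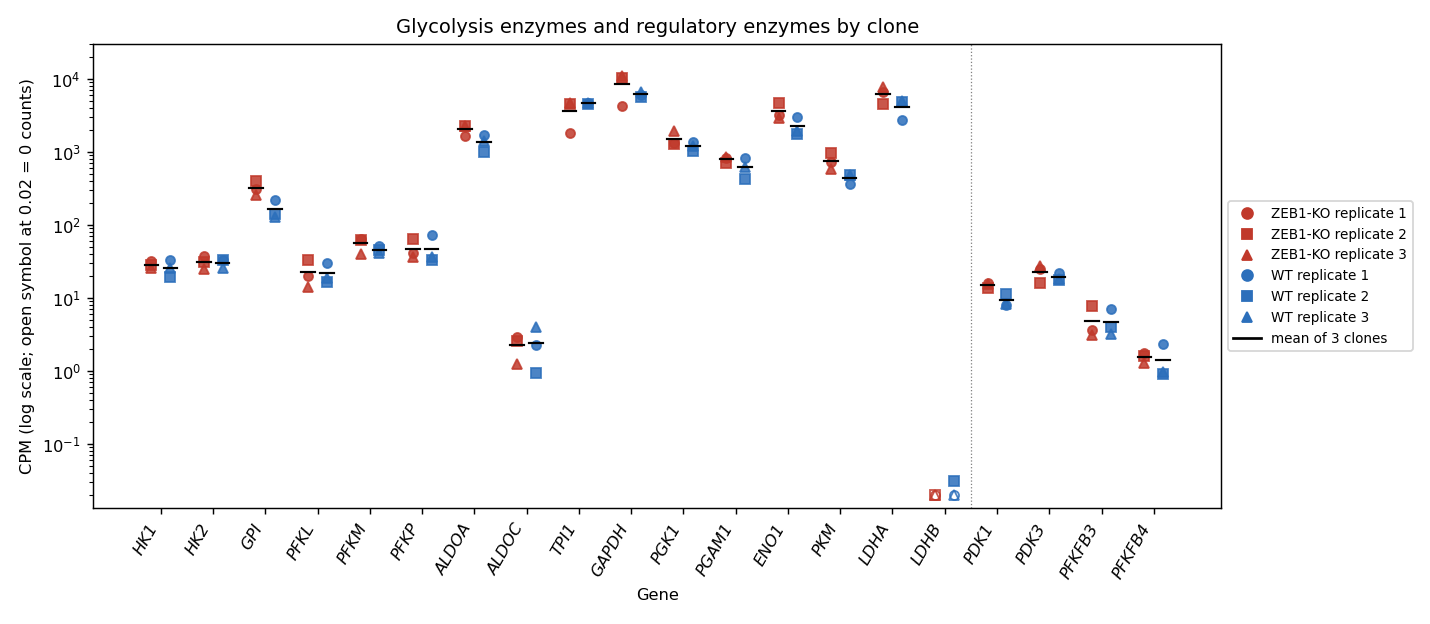
CPM on a log axis for the 16 pathway enzymes (left of the dotted line) and the 4 regulatory enzymes (right) in each clone, ZEB1-KO left of WT, with a bar at the mean of 3 clones where it is above the plotted minimum. Levels span from 0 counts of LDHB to 10982 CPM of GAPDH, the ZEB1-KO points of GPI, PKM and PDK1 lie wholly above the WT points, and ZEB1-KO replicate 1 stands low for GAPDH and TPI1.

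Groups did not overlap in CPM for 3 of 19 tested enzymes, GPI, PKM and PDK1. All 3 were higher in ZEB1-KO clones, where 11.9% of all genes tested did so. GPI, which turns glucose 6-phosphate into fructose 6-phosphate, had 304.9, 400.9 and 257.8 CPM in ZEB1-KO replicates 1, 2 and 3, against 219.3, 142.3 and 129.8 CPM in WT replicates 1, 2 and 3. Each ZEB1-KO clone was above each WT clone, and WT replicate 1 was closest to them. The fitted log2 fold change was 0.97 (SE 0.27), where edgeR's quasi-likelihood test gave an adjusted p of 0.134 and DESeq2 0.0307. The authors' deposited table has 0.96 and an adjusted p of 0.0598. PKM, the pyruvate kinase of the last energy-yielding step, had 719.6, 958.5 and 572.4 CPM in ZEB1-KO replicates 1, 2 and 3, against 357.2, 479.8 and 474.4 CPM in WT replicates 1, 2 and 3. Here too the groups were apart, with ZEB1-KO replicate 2 the highest and WT replicate 1 the lowest. PKM had a fitted log2 fold change of 0.78 (SE 0.25), and its adjusted p was 0.169 by the same quasi-likelihood test. Counts per gene do not separate its M1 and M2 splice forms.

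LDHA, which makes lactate from pyruvate and regenerates NAD, had 6519, 4519 and 7704 CPM in ZEB1-KO replicates 1, 2 and 3, against 2697, 4797 and 4909 CPM in WT replicates 1, 2 and 3. The groups overlapped in CPM, since ZEB1-KO replicate 2 lay below WT replicates 2 and 3. The fitted log2 fold change was 0.60, with a 95% interval of -0.11 to 1.30 (adjusted p = 0.345, edgeR's quasi-likelihood test). It lay between 0.38 and 0.78 with 1 library left out. On the TPM scale the groups were apart, with 3264 TPM in the lowest ZEB1-KO clone and 2691 TPM in the highest WT clone. Limma on log2(TPM + 1) gave LDHA a log2 fold change of 0.89 (adjusted p = 0.103), where the median of all genes was 0.23. LDHB, the other main lactate dehydrogenase chain, had 0 counts in each ZEB1-KO library, and 0, 1 and 0 counts in WT replicates 1, 2 and 3. It was below the floor of 3 counts in all 6 clones, which leaves any difference undetectable here, while LDHA had at least 117726 counts in each library.

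GAPDH and TPI1 set ZEB1-KO replicate 1 apart from the other clones. GAPDH had 4188, 10357 and 10982 CPM in ZEB1-KO replicates 1, 2 and 3, against 6091, 5718 and 6512 CPM in WT replicates 1, 2 and 3. Thus ZEB1-KO replicate 1 was below every WT clone and the other 2 ZEB1-KO clones were above. The log2 fold change of 0.48 had an interval of -0.32 to 1.28 (adjusted p = 0.506, edgeR's quasi-likelihood test), and it was 0.81, 0.31 and 0.25 when ZEB1-KO replicate 1, 2 or 3 was left out. TPI1, which interconverts the triose phosphates, had 1789, 4534 and 4658 CPM in ZEB1-KO replicates 1, 2 and 3, against 4643, 4509 and 4676 CPM in WT replicates 1, 2 and 3. The highest WT clone was 1.04 times the lowest, and the spread lay in ZEB1-KO replicate 1 alone. That library also had the lowest total count, 18909305, and whether depth plays a part was not tested.

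ENO1, the enolase, and ALDOA, the main aldolase, had log2 fold changes of 0.68 and 0.60, with unadjusted p-values of 0.0460 and 0.0493 and adjusted p-values of 0.272 and 0.281 in edgeR's quasi-likelihood test. Both overlapped between groups in CPM, because WT replicate 1 was at 2995 CPM for ENO1 and 1696 CPM for ALDOA. On the TPM scale neither overlapped, with lowest ZEB1-KO values of 1463 and 828.8 TPM against highest WT values of 1426 and 815 TPM. Limma on log2(TPM + 1) gave them 0.96 and 0.89, where the median of all genes was 0.23. PGK1 and PGAM1, which act between GAPDH and enolase, had log2 fold changes of 0.33 and 0.34. Their groups overlapped in CPM and were narrowly apart in TPM. Among the enzymes, GAPDH has 62 named pseudogenes in GENCODE release 29, PGAM1 13 and LDHA 6. PKM has 5, TPI1 and ENO1 4 each, LDHB 3, ALDOA 2, and PGK1 and HK2 1 each. The sources used here do not say how reads shared with such copies were counted, which leaves those counts uncertain.

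Hexokinases and phosphofructokinases had log2 fold changes of 0.28 or less. HK2, the hexokinase that HIF is known to induce, had 37.2, 31.1 and 24.5 CPM in ZEB1-KO replicates 1, 2 and 3, against 32.5, 32.5 and 25.8 CPM in WT replicates 1, 2 and 3. The groups overlapped fully, with a log2 fold change of 0.03 and a 95% interval of -0.51 to 0.57. For HK1, PFKL, PFKM and PFKP the log2 fold changes were 0.14, 0.06, 0.28 and 0.01. Among the 19 tested enzymes, 8 had a 95% interval wholly between -1 and 1 on the log2 scale, namely these 5 and PGK1, PGAM1 and PDK3, or 42.1% against 35.4% of all genes. A 2-fold change in either direction thus lay outside their intervals.

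Of the regulatory enzymes, PDK1 was the one whose groups were apart. It encodes a kinase that blocks pyruvate dehydrogenase and so limits the use of pyruvate inside the mitochondria. PDK1 had 15.8, 13.5 and 15.4 CPM in ZEB1-KO replicates 1, 2 and 3, against 8.06, 11.4 and 8.35 CPM in WT replicates 1, 2 and 3. All 3 ZEB1-KO clones were above the highest WT clone, and the fitted log2 fold change was 0.69 (SE 0.25, adjusted p = 0.211 in edgeR's quasi-likelihood test). PDK3, a second kinase of that complex, had a log2 fold change of 0.25. PFKFB3 and PFKFB4, which make the phosphofructokinase activator fructose 2,6-bisphosphate, had log2 fold changes of 0.04 and 0.11 at no more than 7.83 CPM in any clone.

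Clones of 1 group also differed among themselves. ZEB1-KO replicates 1, 2 and 3 had 10, 13 and 9 of the 15 tested pathway enzymes above the mean of all 6 libraries, against 11, 2 and 2 in WT replicates 1, 2 and 3. WT replicate 1 thus stood with the ZEB1-KO clones, and WT replicates 2 and 3 were low. Summed over the 16 pathway enzymes, the level was 20632, 29951 and 32223 CPM in ZEB1-KO replicates 1, 2 and 3, against 21102, 19998 and 21975 CPM in WT replicates 1, 2 and 3. That sum is mostly GAPDH, LDHA and TPI1, and ZEB1-KO replicate 1 lay within the range of the WT clones. It averaged 27602 ± 6142 CPM in ZEB1-KO clones and 21025 ± 990.7 CPM in WT clones (SD, n = 3 each).

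Isozymes were then compared within families on the TPM scale, as each gene's share of its family's summed TPM. Over 8 shares in 6 families, no exact permutation p (two-sided) was below 0.2, where 3 against 3 clones cannot go below 0.1, and each was 0.8 after adjustment. P4HA2 had the widest gap, with 40.9%, 69.5% and 70.3% of the summed TPM of P4HA1 and P4HA2 in ZEB1-KO replicates 1, 2 and 3, against 45.0%, 31.3% and 32.3% in WT replicates 1, 2 and 3. The order of the 2 genes was reversed in ZEB1-KO replicates 2 and 3, while ZEB1-KO replicate 1 stood among the WT clones. HK2 made up 39.4% ± 2.29 of hexokinase TPM in ZEB1-KO clones and 41.9% ± 7.35 in WT clones (SD, n = 3 each). PFKM, PFKP and PFKL, the muscle, platelet and liver forms of phosphofructokinase, made up 39.8%, 42.9% and 17.3% in ZEB1-KO clones and 36.4%, 45.1% and 18.5% in WT clones. ALDOC, the aldolase of brain, was at most 0.557% of aldolase TPM in any clone.

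**Figure D3:**
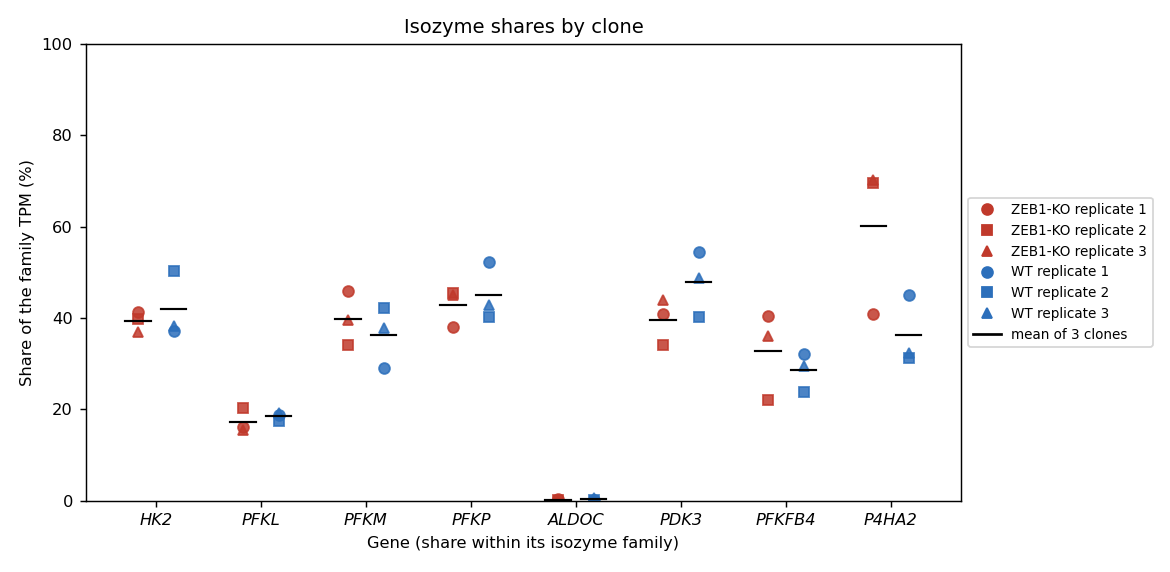
Share of each gene in the summed TPM of its isozyme family (percent, linear axis from 0 to 100) in each clone, ZEB1-KO left of WT, with bars at the mean of 3 clones. P4HA2 averages 60.2% in ZEB1-KO clones and 36.2% in WT clones with overlap, and the other shares differ by less than 10 percentage points.

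Among the hypoxia genes the factors themselves came first. HIF1A, the main oxygen-regulated factor, had 92.4, 101.3 and 285.8 CPM in ZEB1-KO replicates 1, 2 and 3, against 64.2, 93.0 and 65.6 CPM in WT replicates 1, 2 and 3. In CPM, ZEB1-KO replicate 3 was 3.09 times the lowest ZEB1-KO clone, and the other 2 ZEB1-KO clones lay close to WT replicate 2. On the TPM scale the groups were apart, with 34.1 TPM in the lowest ZEB1-KO clone and 27.5 TPM in the highest WT clone. With limma on log2(TPM + 1) the median log2 fold change of all genes was itself 0.23. The fitted log2 fold change was 1.11 (SE 0.44, adjusted p = 0.238 in edgeR's quasi-likelihood test), and it was 0.38 without ZEB1-KO replicate 3. That library was also the ZEB1-KO library with the most ZEB1 counts, 369, and a link between the 2 was not tested. EPAS1, which encodes HIF-2 alpha, had 10, 13 and 59 counts in ZEB1-KO replicates 1, 2 and 3, against 6, 68 and 7 counts in WT replicates 1, 2 and 3. A single clone was high in each group. The fitted log2 fold change of 0.09 had limits of -2.22 and 2.39, and leaving out a high clone gave -1.05 (ZEB1-KO replicate 3) or 2.13 (WT replicate 2).

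The prolyl hydroxylase EGLN1, the main oxygen sensor of the pathway, had lower values in ZEB1-KO clones. It had 46.6, 35.8 and 43.5 CPM in ZEB1-KO replicates 1, 2 and 3, against 73.7, 68.5 and 46.8 CPM in WT replicates 1, 2 and 3. The groups did not overlap in CPM, though ZEB1-KO replicate 1 and WT replicate 3 nearly met, and the fitted log2 fold change was -0.59 (SE 0.24, adjusted p = 0.249 in edgeR's quasi-likelihood test). On the TPM scale they did overlap, with WT replicate 3, at 9.24 TPM, below every ZEB1-KO clone. Limma on log2(TPM + 1) gave EGLN1 a log2 fold change of -0.27, where the median of all genes was 0.23. EGLN3, the form most strongly induced by HIF, had 1, 2 and 27 counts in ZEB1-KO replicates 1, 2 and 3, against 37, 17 and 6 counts in WT replicates 1, 2 and 3. A log2 fold change of -0.77 over all clones became -3.37 without ZEB1-KO replicate 3 (adjusted p = 0.118 in edgeR's quasi-likelihood test), but was -0.33 or -0.22 if ZEB1-KO replicate 1 or 2 was left out, and -0.26 if WT replicate 1 was.

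**Figure D4:**
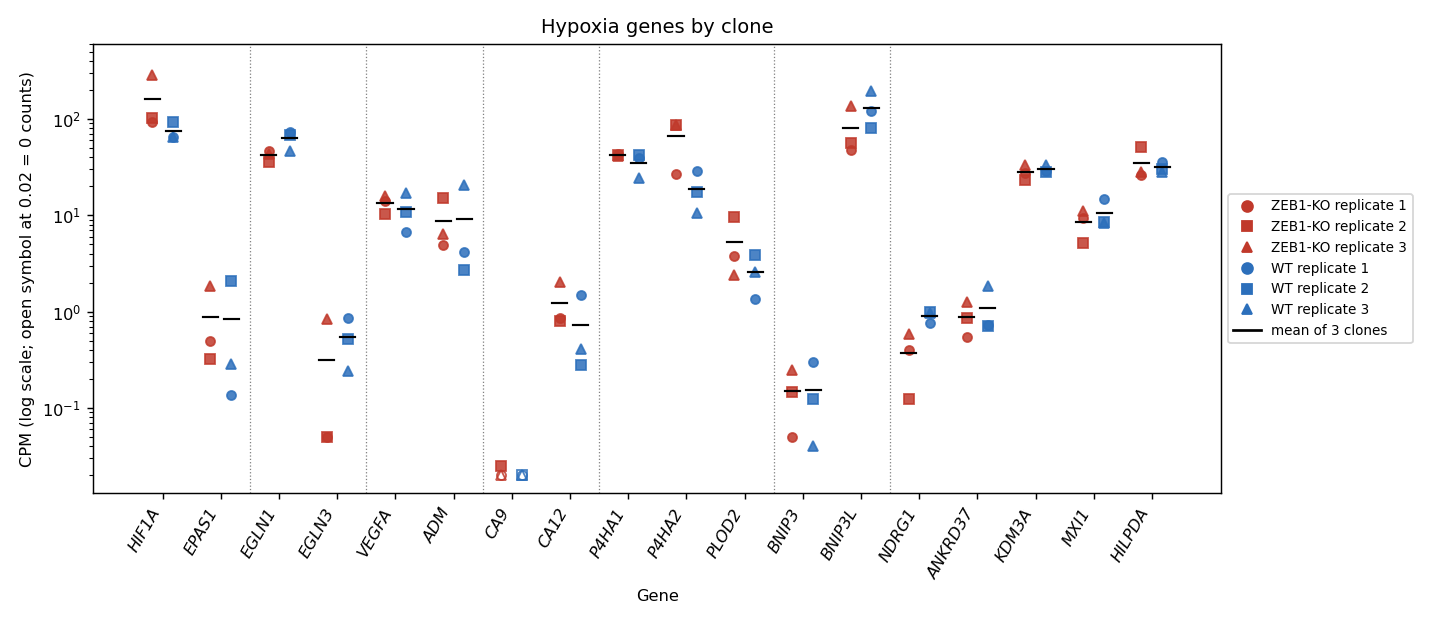
CPM on a log axis for the 18 hypoxia genes in each clone, ZEB1-KO left of WT, with dotted lines between roles and a bar at the mean of 3 clones where it is above the plotted minimum. ZEB1-KO replicate 3 stands above the rest for HIF1A, NDRG1 and EGLN1 keep lower ZEB1-KO points, and CA9 lies at 0 counts in 5 of 6 clones.

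Secreted HIF targets and pH regulators showed no gap between the groups. VEGFA, the growth factor for blood vessels, had 13.9, 10.4 and 15.9 CPM in ZEB1-KO replicates 1, 2 and 3, against 6.78, 10.9 and 16.9 CPM in WT replicates 1, 2 and 3. The WT clones spanned the ZEB1-KO clones, with a log2 fold change of 0.22 and an interval of -0.61 to 1.04. With 1 library left out, the fold change of VEGFA ran from -0.03 to 0.60. ADM, the vasodilator adrenomedullin, varied more within groups than between them, up to 7.54-fold among WT clones. The fitted value of -0.04 (log2) became -0.68 without ZEB1-KO replicate 2, and -0.45 or 1.37 if WT replicate 2 or 3 was left out. CA9, the tumour carbonic anhydrase, had 0, 1 and 0 counts in ZEB1-KO replicates 1, 2 and 3, while each WT library had 0, below the floor throughout. CA12, the other membrane carbonic anhydrase, was at 2.02 CPM or less in every clone. The fitted value of 0.72 (log2) became 0.15 without ZEB1-KO replicate 3, and 1.86, 0.35 or 0.46 if WT replicate 1, 2 or 3 was left out.

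The largest fold change of the members belonged to P4HA2, which encodes a prolyl hydroxylase chain that stabilizes collagen. P4HA2 had 26.7, 86.8 and 87.2 CPM in ZEB1-KO replicates 1, 2 and 3, against 28.8, 17.3 and 10.5 CPM in WT replicates 1, 2 and 3. ZEB1-KO replicates 2 and 3 stood above all WT clones, while ZEB1-KO replicate 1 was just under WT replicate 1. It averaged 66.9 ± 34.8 CPM in ZEB1-KO clones and 18.9 ± 9.22 CPM in WT clones (SD, n = 3 each), a fitted fold of 3.55. On the log2 scale this was 1.83 (SE 0.51), and edgeR's quasi-likelihood test gave an adjusted p of 0.131. DESeq2 gave an adjusted p of 0.00538 and edgeR's likelihood ratio test 0.0226, and all alternatives together spanned 0.00538 to 0.334. In the authors' deposited table P4HA2 was the only one of 30 listed members below 0.05, with a log2 fold change of 1.81 and an adjusted p of 0.0305. SMART-Seq2 libraries do not mark the strand, and the antisense gene P4HA2-AS1 had 14, 49 and 66 counts in ZEB1-KO replicates 1, 2 and 3, against 23, 19 and 1 in WT replicates 1, 2 and 3. P4HA2 had 536 to 3515 counts in ZEB1-KO libraries and 260 to 1256 counts in WT libraries. Whether reads of the antisense gene entered the P4HA2 counts was not tested.

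Other collagen hydroxylases had smaller differences. P4HA1, another alpha chain of the same enzyme, stood at 0.26 on the log2 scale (interval -0.30 to 0.82), and ZEB1-KO clones lay between 41.0 and 43.0 CPM. PLOD2, a lysyl hydroxylase of collagen cross-links, had a log2 fold change of 1.02 that became 0.25 without ZEB1-KO replicate 2, the clone with 386 counts. BNIP3L, a mitophagy receptor, had 48.0, 55.8 and 137.4 CPM in ZEB1-KO replicates 1, 2 and 3, against 119.7, 80.0 and 193.8 CPM in WT replicates 1, 2 and 3. Both groups had a high replicate 3, and the log2 fold change was -0.71 (adjusted p = 0.457, edgeR's quasi-likelihood test), -0.44 or -1.34 without ZEB1-KO replicate 1 or 3, and -0.31 without WT replicate 3. BNIP3, its relative, had at most 13 counts in any library and has 39 named pseudogenes in GENCODE release 29.

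NDRG1, a stress gene long used as a hypoxia marker, was the other hypoxia gene whose groups were apart in CPM. It had 8, 5 and 19 counts in ZEB1-KO replicates 1, 2 and 3, against 33, 32 and 24 counts in WT replicates 1, 2 and 3. All ZEB1-KO values were lower, at under 1 CPM in every clone. The fitted log2 fold change was -1.30 (SE 0.56, adjusted p = 0.275 in edgeR's quasi-likelihood test), and it was -0.84 without ZEB1-KO replicate 2. With EGLN1 it made 2 of 16 tested hypoxia genes with lower, non-overlapping CPM, where 11.7% of all genes tested did so. None of the 16 had higher, non-overlapping CPM, where 11.9% of all genes tested did so. On the TPM scale, which lacks NDRG1, HIF1A and P4HA1 were higher without overlap and EGLN1 overlapped. KDM3A, a histone demethylase, and HILPDA, a lipid droplet protein, had log2 fold changes of -0.11 and 0.17. With P4HA1 they were the 3 of 16 hypoxia genes whose intervals lay between -1 and 1, or 18.8% against 35.4% of all genes. MXI1, a MYC antagonist, and ANKRD37 had log2 fold changes of -0.31 and -0.28.

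By clone, 12 of the 16 tested hypoxia genes were above their 6-library mean in ZEB1-KO replicate 3, against 4 and 6 in ZEB1-KO replicates 1 and 2 and 9, 6 and 6 in WT replicates 1, 2 and 3. The summed level was 344.2, 439.8 and 698.3 CPM in ZEB1-KO replicates 1, 2 and 3, against 421.6, 389.8 and 455.1 CPM in WT replicates 1, 2 and 3. ZEB1-KO clones thus held both the lowest and the highest sum, and HIF1A alone gave 285.8 CPM of the highest.

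**Figure D5:**
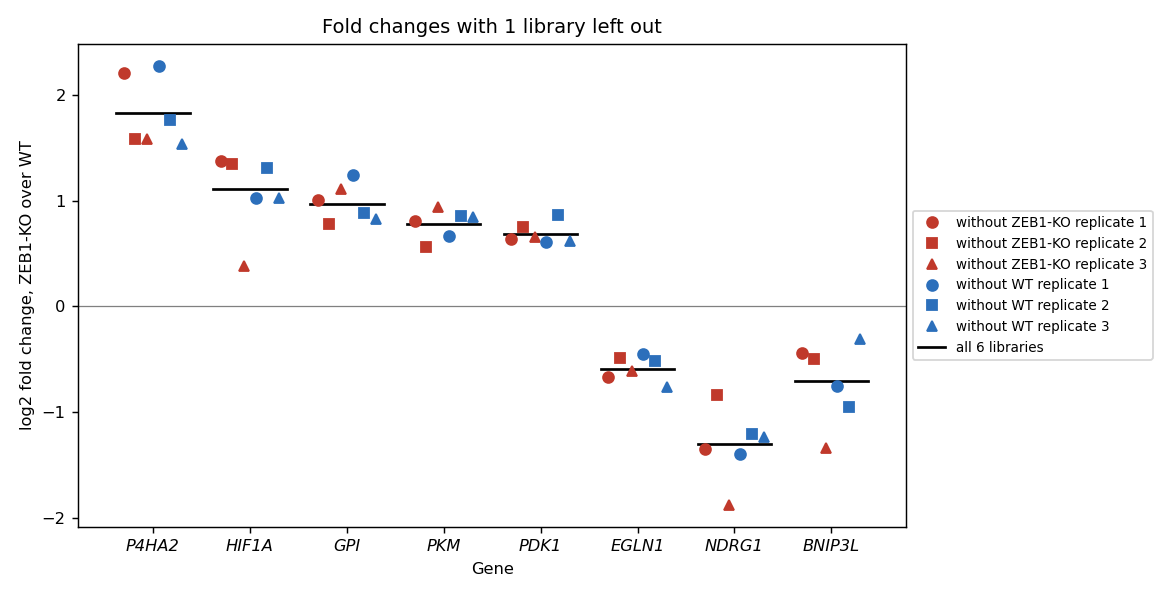
Log2 fold changes (ZEB1-KO over WT) of 8 members with 1 library left out at a time (symbols) and with all 6 libraries (bars). HIF1A drops to 0.38 without ZEB1-KO replicate 3, NDRG1 and BNIP3L move to -1.88 and -1.34 without it, and P4HA2 stays between 1.54 and 2.28.

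Leaving out 1 library at a time kept the sign of each of the 8 members in that plot. For GPI, PKM, PDK1, EGLN1 and NDRG1, whose groups did not overlap in CPM, a change of sign was hardly possible. Their kept sign is thus only a description. With 1 library left out, GPI lay between 0.78 and 1.25, PKM between 0.56 and 0.94 and PDK1 between 0.61 and 0.87 on the log2 scale. Over 19 alternatives each, or fewer where a gene was filtered out, 21 of the 35 tested members kept their sign throughout.

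Further genes of the pathway were counted from lists that were likewise chosen with earlier results known. Of 22 tested genes for sugar and pyruvate handling, 15 were positive (median log2 fold change 0.28), and none passed in edgeR's quasi-likelihood test, although 6 (27.3%) were under 0.05 before adjustment, against 17.7% of all genes. The likelihood ratio test called 1 of the 22 higher and DESeq2 1 of 21, where they called 4.52% and 7.12% of all genes. That gene was SLC16A3, the lactate exporter MCT4. It had 38, 185 and 46 counts in ZEB1-KO replicates 1, 2 and 3, against 36, 26 and 11 in WT replicates 1, 2 and 3. SLC16A3 had a fitted log2 fold change of 1.92, where edgeR's quasi-likelihood test gave an adjusted p of 0.131 and DESeq2 0.0188. Of 10 tested regulators of HIF, 7 were negative (median log2 fold change -0.18), and none passed either test, although 2 (20%) were under 0.05 before adjustment in the quasi-likelihood test.

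Of 25 other hypoxia targets tested, 13 had a positive and 12 a negative log2 fold change. The quasi-likelihood test of edgeR called 0 of them, with 9 (36%) under 0.05 before adjustment, against 17.7% of all genes. DESeq2 and the likelihood ratio test each called 4 higher and 1 lower, where they called 7.12% and 4.52% of all genes. Those called by DESeq2 included NT5E, DDIT4 and GBE1. DDIT4, an inhibitor of mTORC1, had a log2 fold change of 1.36, and GBE1, the glycogen branching enzyme, 1.48, both with non-overlapping groups. NT5E, the ectonucleotidase CD73, had 1123, 1334 and 1409 counts in ZEB1-KO replicates 1, 2 and 3, against 2722, 6099 and 9275 counts in WT replicates 1, 2 and 3. NT5E thus had a fitted log2 fold change of -2.24 (adjusted p = 0.115 in edgeR's quasi-likelihood test).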

How the data were processed

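RNA-seq was available for 6 libraries, 3 ZEB1-KO and 3 WT, grouped by sample titles. Per the labels' protocols, libraries were made from lysed cells by SMART-Seq2, which amplifies cDNA of RNA with a poly(A) tail. That method marks neither strand nor single molecules, so floors cover counting error only. The authors deposited counts per gene symbol, a TPM table of 11013 of these genes, and edgeR results for those genes, which hold log2 values (fold change and average CPM), a likelihood ratio score, and p-values before and after adjustment, per the file headers. TopHat2 2.1.0, HTSeq 0.6.1, edgeR 3.2.2 and builds hg19 and GRCh37 are named in the submitters' processing notes, without settings.

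The members and gene lists were chosen with earlier results of these data known. The deposited counts went into edgeR 4.0.16 (R 4.3.3): filterByExpr (minimum count 10, total 15; 13659 genes kept), TMM scaling, glmQLFit and glmQLFTest on group alone, two-sided, Benjamini-Hochberg over all genes, threshold 0.05. Standard errors and 95% intervals of log2 fold changes come from the F statistic. Values per clone relative to the 6-library mean use log2(CPM + 0.5). P-values set the difference between groups against the spread between clones, for which the sources used here give no culture day or batch. The scripts were tested on simulated data. Alternatives were other scalings and filters, DESeq2 1.42.0, edgeR's likelihood ratio test, robust estimation, limma 3.58.1 (voom, or log2 of TPM plus 1 or 0.1), the replicate number as a block, and leaving out each library. Members were described with the value in every library if past 0.05 by edgeR's quasi-likelihood or likelihood ratio test or DESeq2. The same held if groups did not overlap in CPM at an absolute log2 fold change of at least 0.5. HIF1A, EPAS1, HK2, PKM, LDHA, LDHB, GAPDH, VEGFA and CA9 were so described in any case. TPI1, PLOD2, BNIP3L, EGLN3 and ADM were detailed further after their values were seen. Some genes of the other lists are not reported here. Promoter windows were matched by symbol to RefSeq on GRCh38.p14, another build than that of the counts.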

Additional observations from a re-analysis of the deposited data

How the results depend on the processing

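No enzyme or hypoxia member passed 0.05 with any scaling or filter, robust estimation, limma-voom, limma on TPM, the replicate number as a block or any left-out library. DESeq2 called 1 enzyme and 1 hypoxia gene, and edgeR's likelihood ratio test 1 hypoxia gene. Calls over all genes numbered 24, against 134 without a filter, 935 with DESeq2, 617 with the likelihood ratio test, 56 with robust estimation, 101, 94 and 80 with limma on log2(TPM + 1), log2(TPM + 0.1) and log2(TPM + 1) without a filter, and 5 to 25 without 1 library. With limma on those TPM scales the enzyme median was 0.55, 0.56 and 0.51 and the hypoxia median 0.46, 0.55 and 0.46, where the median of all genes was 0.23, 0.27 and 0.20. The hypoxia medians cover 11 genes, since the other members are not in the TPM table. Without 1 library the enzyme median ran from 0.20 to 0.45 and the hypoxia median from -0.09 to 0.22. Library size alone moved the median of all genes to 0.14. The replicate number as a block gave 20 calls over all genes and 0 among the members. Same-numbered clones correlated at 0.0219, 0.00714 and 0.224 in their deviations, and unlike-numbered clones at -0.124 to 0.104. The numbers were not taken as pairs. Replicates numbered 3 had the highest value, and whether they share a factor was not tested. Of 56 alternative values of isozyme shares, 0 moved by as much as the SD between clones, pooled over both groups. Leaving out 1 of 3 clones cannot shift a group mean that far. Only the use of counts in place of TPM could have moved a share. Groups of 3 clones and genes under 1 CPM limit what could be detected, and the cause of each difference between tests was not tested.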
